A study of Rattus norvegicus with 36 samples.

Results

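The 10 clock genes Nr1d1, Nr1d2, Dbp, Tef, Per2, Per3, Cry1, Cry2, Clock and Npas2 were followed through 36 RNA sequencing libraries of rat lung. Members were taken by gene name from a table of 27308 genes. Each of the 10 names matched 1 row, and 10 of 10 passed the filter on low counts that left 15570 genes for testing. All rats, normoxic controls included, were of the knock-in line huSlc39a12, made with CRISPR-Cas9 in Sprague Dawley rats, in which human Slc39a12 replaces its rat counterpart and supplies ZIP12, a zinc importer. Adults of both sexes weighing 200 to 240 g breathed normal air or spent 2 weeks in 10% oxygen at normal pressure. Under hypoxia they were given APL-9796, an antibody against ZIP12, or IgG as control, intraperitoneally at 10 mg/kg, first 48 hours before hypoxia and then every 3 days. Each arm held 12 libraries, 6 male (here numbered 1 to 6) and 6 female (7 to 12). The normoxic labels mention no injection, so against normoxia the effects of hypoxia and of IgG cannot be told apart. Whether every library is from its own animal is not stated, so the p-values reflect only how these libraries vary, which may be technical. They give no hour of tissue collection.

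Nearly every mammalian cell runs a clock made of linked feedback loops. BMAL1 pairs with CLOCK, or with its relative NPAS2, and the pair binds E-boxes to switch on the Period and Cryptochrome genes, Nr1d1, Nr1d2, Dbp and Tef. PER and CRY proteins then block that pair, while the nuclear receptors REV-ERB alpha and beta, encoded by Nr1d1 and Nr1d2, repress Bmal1, Npas2, Clock and Cry1 through ROR elements. DBP and TEF in turn act on D-boxes, among others in Period genes. In rodent tissues, lung included, Dbp, Nr1d1, Per3 and Tef cycle nearly opposite to Bmal1 and Npas2, with Nr1d1 ahead of Dbp and Dbp ahead of Per2.

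Promoter windows, from 250 bases before to 50 bases after the start, were found for 9 of the 10 members in RefSeq sequences of the rat assembly GRCr8, with more than 1 window for Nr1d1 and Clock. Both strands were searched for the E-box CACGTG, held by 6.42% of 33469 windows, the E-prime box CACGTT (4.83%), the D-box TTATGTAA (0.893%) and the ROR element core TAGGTCA (2.63%). The windows with a match are shown because these motifs are the links of the loops above. Capitals mark the matches, and AACGTG, TTACATAA and TGACCTA are the same motifs read on the other strand. Per2 held a D-box and an E-prime box.
Per2, chr9:99496944-99497243, minus strand: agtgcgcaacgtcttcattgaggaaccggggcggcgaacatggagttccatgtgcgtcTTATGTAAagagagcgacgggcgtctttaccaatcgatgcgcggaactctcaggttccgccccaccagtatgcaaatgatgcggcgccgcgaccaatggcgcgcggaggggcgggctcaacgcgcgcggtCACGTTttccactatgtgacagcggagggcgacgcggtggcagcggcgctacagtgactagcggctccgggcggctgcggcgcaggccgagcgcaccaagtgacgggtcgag
Tef and the second Nr1d1 start held an E-box, and the first Nr1d1 start and Cry2 an E-prime box.
Tef, chr7:115206577-115206876, plus strand: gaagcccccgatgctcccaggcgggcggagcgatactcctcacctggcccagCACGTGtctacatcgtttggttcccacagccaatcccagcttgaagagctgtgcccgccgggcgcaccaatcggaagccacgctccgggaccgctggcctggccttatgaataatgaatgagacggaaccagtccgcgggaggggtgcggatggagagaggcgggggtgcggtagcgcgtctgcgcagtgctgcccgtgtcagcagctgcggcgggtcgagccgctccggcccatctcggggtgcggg
Nr1d1 second start, chr10:84229405-84229704, minus strand: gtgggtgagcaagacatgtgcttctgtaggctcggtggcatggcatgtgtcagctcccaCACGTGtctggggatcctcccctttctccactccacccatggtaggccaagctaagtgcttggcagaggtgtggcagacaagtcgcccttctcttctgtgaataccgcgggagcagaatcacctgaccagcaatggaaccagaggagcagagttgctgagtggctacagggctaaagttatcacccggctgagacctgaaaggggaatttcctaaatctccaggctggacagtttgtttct
Nr1d1 first start, chr10:84231763-84232062, minus strand: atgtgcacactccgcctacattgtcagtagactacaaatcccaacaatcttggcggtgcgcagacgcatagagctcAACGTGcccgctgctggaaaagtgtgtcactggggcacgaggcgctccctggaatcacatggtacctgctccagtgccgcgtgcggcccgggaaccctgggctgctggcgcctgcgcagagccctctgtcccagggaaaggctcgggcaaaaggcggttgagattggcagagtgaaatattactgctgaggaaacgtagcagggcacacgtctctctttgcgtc
Cry2, chr3:98860388-98860687, minus strand: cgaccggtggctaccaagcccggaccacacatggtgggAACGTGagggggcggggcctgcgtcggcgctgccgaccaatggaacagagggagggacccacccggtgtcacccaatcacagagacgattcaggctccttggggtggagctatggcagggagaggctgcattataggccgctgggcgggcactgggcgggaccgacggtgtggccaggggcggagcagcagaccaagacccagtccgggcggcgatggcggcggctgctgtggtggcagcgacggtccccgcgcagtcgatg
Bmal1, which is not among the 10 but is the target of the REV-ERB receptors, held a ROR element core.
Bmal1, chr1:176766078-176766377, plus strand: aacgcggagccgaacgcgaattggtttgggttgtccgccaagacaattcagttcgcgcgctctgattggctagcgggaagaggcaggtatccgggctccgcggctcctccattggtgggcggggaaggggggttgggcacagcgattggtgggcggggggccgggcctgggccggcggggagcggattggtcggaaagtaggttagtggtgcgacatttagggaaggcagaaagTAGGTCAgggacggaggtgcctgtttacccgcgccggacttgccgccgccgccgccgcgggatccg
None of the 4 motifs was in the windows of Dbp, Per3, Nr1d2, Npas2 and Clock, which says only that these letters are not there.

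Library totals ran from 6.07 to 20.8 M counts, with a median of 11.1 M. Levels are given as CPM (counts scaled to library size by TMM), without gene length, so they are compared between libraries and not between genes. Read file names in the deposited sample information sorted the libraries into 3 sets, A with 26, B with 9 and C with 1. They are called sequencing runs here, a name that the labels do not give. The runs were uneven over the groups: 6 of 6 male normoxic libraries were in run A, and 4 of 6 female IgG libraries in run B. Two-sided tests used edgeR's quasi-likelihood method in 1 model of all 36 libraries, and FDR is the Benjamini-Hochberg adjusted p over 15570 genes, with a threshold of 0.05. In whole lung, fewer cells of a type and less RNA per cell cannot be told apart in any level below.

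By their level of Dbp, 6 libraries stood apart from the other 30. Dbp (rCG_54392), the D-box activator, was above 100 CPM in male IgG 4 (199 CPM), male IgG 5 (251 CPM), male IgG 6 (259.6 CPM), female IgG 7 (202 CPM), female APL-9796 7 (124 CPM) and female APL-9796 12 (246 CPM). In the other 30 libraries Dbp ran from 6.86 to 35.2 CPM, with a median of 9.37 CPM. The nearest below the bound were male APL-9796 2 (35.2 CPM) and female IgG 11 (32.8 CPM). The 6 libraries made up 0 of 12 in normoxia, 4 of 12 with IgG and 2 of 12 with APL-9796. By run they were 3 of 26 in A, 3 of 9 in B and 0 of 1 in C. The bound of 100 CPM was set after the Dbp values were seen, so what follows for these 6 is a description with no test.

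**Figure D1:**
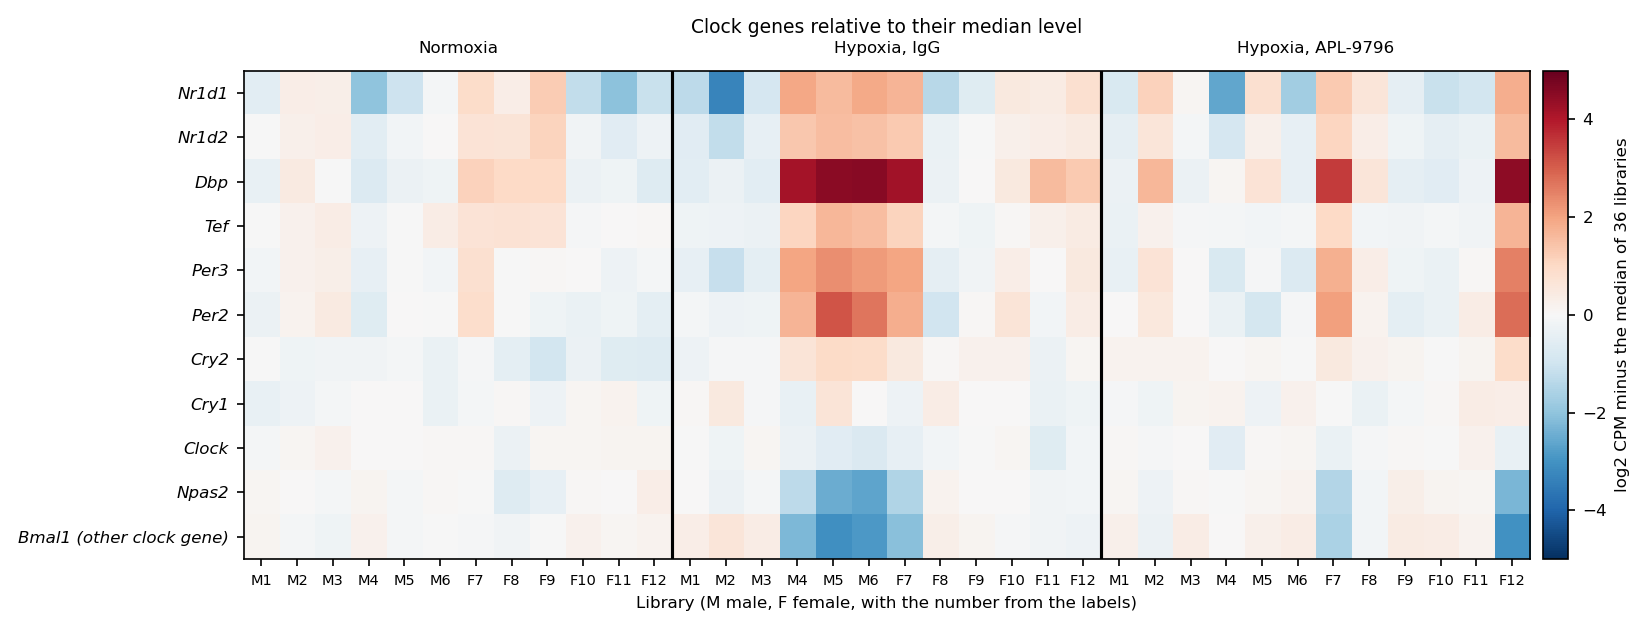
Level of the 10 clock genes and of Bmal1 (lines) in each of the 36 libraries (columns, by arm; M male, F female), as log2 CPM minus the median of the 36 libraries (colour, red higher and blue lower). Male IgG 4, 5 and 6, female IgG 7 and female APL-9796 7 and 12 are red for Dbp and Per3 and blue for Npas2 and Bmal1.

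Other E-box targets were high in the same 6 libraries. Per2 (rCG_55601), a repressor of the CLOCK complex, ran from 83.4 to 228 CPM in the 6 and from 12.96 to 47.4 CPM in the 30. Per3 (rCG_31179), its paralog, ran from 146 to 242 CPM against 19.1 to 72.9 CPM, and Tef (rCG_59656), a second D-box activator, from 222 to 365 CPM against 89.1 to 187 CPM. Per2, Per3 and Tef thus separated the 6 from the 30 without overlap. The 6 were chosen by Dbp, so separation by genes that move with or against Dbp, here and below, follows in part from that choice. How many of all genes separate these libraries was not counted. Nr1d1 (rCG_33292), the receptor REV-ERB alpha, ran from 209 to 326 CPM in the 6 and from 8.59 to 204 CPM in the 30, so its ranges nearly met. Nr1d2 (rCG_42196), REV-ERB beta, ran from 187 to 267 CPM against 37.8 to 193 CPM and overlapped. Cry2 (rCG_26511), a cryptochrome that blocks the CLOCK complex, ran from 66.3 to 91.2 CPM against 25.1 to 55.3 CPM and did not overlap.

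Npas2 and Bmal1, of the opposite phase, were low there. Npas2 (rCG_22431), the partner of BMAL1 that can stand in for CLOCK, ran from 9.56 to 23.98 CPM in the 6 libraries and from 38.5 to 74.5 CPM in the 30. Bmal1 (rCG_39570) ran from 5.91 to 16.3 CPM against 40.0 to 75.4 CPM. Both kept the 6 apart from the 30. Clock (rCG_56964), the usual partner of BMAL1, overlapped at 80.6 to 108 CPM against 88.1 to 153 CPM. Cry1 (rCG_48759), the cryptochrome that peaks later in the cycle, overlapped and was not low there, at 14.3 to 28.5 CPM against 14.01 to 25.2 CPM. The most Cry1 of the 36 libraries was in male IgG 5 (28.5 CPM). Outside the 10, Ciart (rCG_51836), a repressor of the CLOCK complex, ran from 5.49 to 19.96 CPM in the 6 and 0.480 to 2.70 CPM in the 30.

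The 6 libraries were not alike among themselves. Male IgG 4, female IgG 7 and female APL-9796 7 had 83.4, 88.8 and 106 CPM of Per2, 23.98, 20.99 and 21.8 CPM of Npas2 and 10.4, 11.4 and 16.3 CPM of Bmal1. Male IgG 5, male IgG 6 and female APL-9796 12 had 228, 162 and 175 CPM of Per2, 10.7, 9.56 and 12.4 CPM of Npas2 and 5.91, 6.77 and 6.03 CPM of Bmal1. The second trio had more Per2 and less Npas2 and Bmal1 than the first, and each trio held IgG and APL-9796 libraries. Tef was 239, 244 and 222 CPM in the first trio and 358, 330.3 and 365 CPM in the second. Cry2 was 74.2, 66.3 and 67.2 CPM and 91.2, 89.5 and 90.3 CPM. Nr1d1 did not follow the split, with 326, 278 and 209 CPM in the first trio and 255, 314 and 296 CPM in the second. The trios were chosen after these values were seen.

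**Figure D2:**
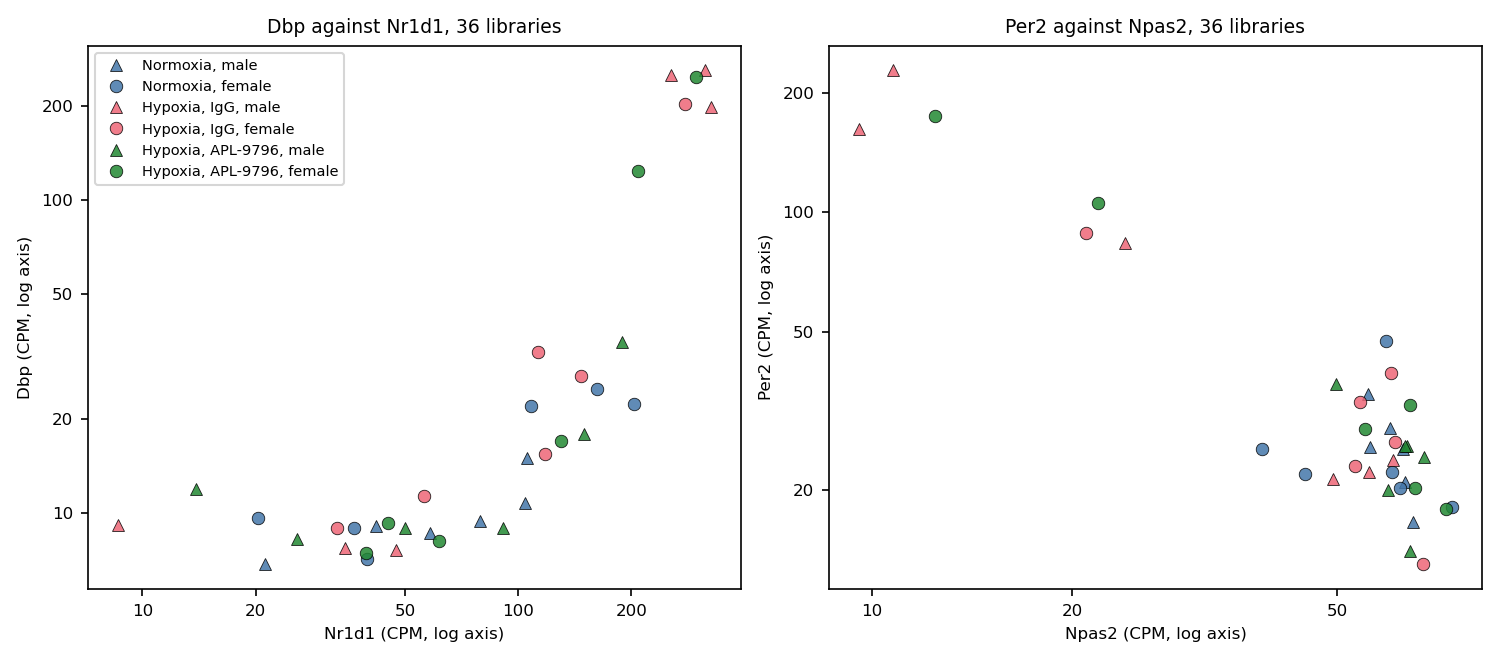
Dbp against Nr1d1 (left) and Per2 against Npas2 (right) in 36 libraries, all in CPM on log axes, with 1 point per library, colour for arm, triangles for males and circles for females. Nr1d1 ran from 8.59 to 204 CPM while Dbp stayed at 35.2 CPM or less, and the 6 libraries with more Dbp lay at 209 CPM of Nr1d1 or above and at 23.98 CPM of Npas2 or below.

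The other 30 libraries differed in clock gene levels as well, most widely in Nr1d1. It was lowest in male IgG 2 (8.59 CPM), male APL-9796 4 (13.9 CPM), female normoxia 11 (20.4 CPM) and male normoxia 4 (21.2 CPM). It was highest in female normoxia 9 (204 CPM), male APL-9796 2 (188 CPM), female normoxia 7 (162 CPM) and male APL-9796 5 (149.8 CPM). Both ends held normoxic and hypoxic libraries. Male IgG 2 also had the most Bmal1 of the 36 libraries (75.4 CPM), the least Per3 (19.1 CPM) and the least Nr1d2 (37.8 CPM).

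Within these 30 libraries many pairs of members moved together. Pearson's r and Spearman's rho were computed on log2 CPM centred on the group mean. Permutation p-values from 100000 resamples were adjusted over 45 pairs, of which 25 had an adjusted p for r under 0.05. The share over pairs of other genes was not computed, so the 25 cannot be read as particular to clock genes. The 30 were left after choosing by Dbp, and the resampling crossed groups and runs, so these p-values describe the 30 libraries only. The smallest p the resampling can give is 1e-05. Nr1d1 and Nr1d2 were closest (r = 0.96, rho = 0.97, p = 1e-05 and 1e-05, adjusted p = 5.62e-05 and 9e-05, for r and rho). Their r was 0.97 in normoxia (n = 12), 0.95 with APL-9796 (n = 10), 0.995 with IgG (n = 8) and 0.96 in run A (n = 23). Dbp went with Tef (r = 0.77, rho = 0.77, p = 1e-05 and 1e-05, adjusted p = 5.62e-05 and 9e-05) and against Npas2 (r = -0.74, rho = -0.73, p = 1e-05 and 3e-05, adjusted p = 5.62e-05 and 0.000150). Nr1d1 went against its target Cry1 (r = -0.71, rho = -0.72, p = 1e-05 and 2e-05, adjusted p = 5.62e-05 and 0.000150). In run A these were 0.70 for Dbp with Tef, -0.70 for Dbp with Npas2 and -0.76 for Nr1d1 with Cry1. Without the 2 libraries farthest from the median, r was 0.96 for Nr1d1 with Nr1d2, 0.77 for Dbp with Tef, -0.70 for Dbp with Npas2 and -0.70 for Nr1d1 with Cry1. Cry2 showed no such relation to Dbp (r = -0.0083, rho = -0.0029, p = 0.965 and 0.989, adjusted p = 0.987 and 0.989) or Nr1d1 (r = 0.065, rho = 0.17, p = 0.733 and 0.366, adjusted p = 0.767 and 0.457) over the 30 libraries. It did go with Per2 there (r = 0.42, permutation test, adjusted p = 0.0397, n = 30). With Per3 its r was 0.38 and did not pass (permutation test, adjusted p = 0.0695, n = 30). By arm, r of Cry2 with Dbp was 0.070 in normoxia, -0.52 with IgG and 0.48 with APL-9796. With Nr1d1 it was -0.048, -0.18 and 0.68. No correlation over all 36 libraries was tested, since they fall into separate clusters.

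Among 9123 genes with a symbol and a mean of at least 1 CPM, most of those closest to Dbp were clock genes. Likeness was Pearson's r of group-centred log2 CPM over 36 libraries, given as a description on which the 6 libraries weigh heavily. It was 0.96 for Tef, 0.95 for Per3, 0.95 for Ciart, 0.93 for Nr1d2, 0.91 for Per2 and 0.84 for Mthfd1l, which encodes a mitochondrial folate enzyme. At the other end stood Bmal1 (-0.96), Npas2 (-0.94), Arsi (-0.85), Ccdc120 (-0.84), Prkcd (-0.84) and Cdkn2b (-0.83). In the 30 libraries, without centring, r was 0.76 for Nr1d2, 0.67 for Tef, 0.65 for Per3, 0.57 for Ciart, 0.46 for Per2 and 0.41 for Mthfd1l. It was -0.73 for Bmal1, -0.62 for Npas2, -0.42 for Arsi, -0.37 for Ccdc120, -0.29 for Prkcd and -0.12 for Cdkn2b.

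Most of the variance of the members, Cry2 apart, lay within groups, as it did for the median over all genes. The SD of log2 CPM between libraries of 1 sex and arm was 1.62 for Dbp, 1.41 for Nr1d1, 0.97 for Per2, 0.91 for Per3, 0.74 for Nr1d2, 0.71 for Npas2 and 0.58 for Tef. It was 0.31 for Cry2, 0.24 for Cry1 and 0.23 for Clock, beside a median of 0.25 over all genes tested. By this SD Dbp ranked 14 and Nr1d1 32 of 15570 genes. The share of the variance within groups was 94.6% for Nr1d1 and 80.3% for Dbp, with a median of 82.3% over the 10 members and 77.3% over all genes. The medians of the share within arms were 91.4% and 91.6%. At 48.6% Cry2 had the lowest share within groups of the 10. A phase index per library, the mean z-score of Dbp, Nr1d1, Per3 and Tef minus that of Npas2, Clock and Cry1, was -0.42 ± 0.71 (mean ± SD, n = 12) in normoxia, 0.61 ± 2.01 with IgG (n = 12) and -0.19 ± 1.45 with APL-9796 (n = 12). The SD with IgG exceeded each difference between these means. Without the 6 libraries the index was -0.63 ± 1.02 with IgG (n = 8) and -0.73 ± 0.76 with APL-9796 (n = 10). The index combines levels and cannot tell phase from amplitude. In the 30 libraries r of Clock was 0.18 with Nr1d1, 0.25 with Per3, -0.33 with Dbp and -0.23 with Tef. None of these pairs had an adjusted p under 0.05, so Clock was not clearly opposite to them there.

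The spread itself was called wider with IgG than in normoxia for 2 of 10 members. Absolute deviations of log2 CPM from the group mean, compared with limma over all genes, were larger for Dbp (by 1.41, FDR = 0.0142) and for Per3 (by 0.85, FDR = 0.0192). Npas2 (FDR = 0.0786), Per2, Tef, Cry2, Nr1d2 and Clock (FDR = 0.305) also had larger deviations at an unadjusted p under 0.05 and did not pass. Over all genes 0.167% were called in this test, 0.045% as wider. For APL-9796 against normoxia 0 of 10 members were called beside 0.161% of genes, with 4 at an unadjusted p under 0.05. For APL-9796 against IgG 0 of 10 were called beside 0% of genes, with 3 at an unadjusted p under 0.05. Without the 6 libraries 0 members were called for IgG against normoxia, and 0 with deviations taken from the group median. Over the 3 arm comparisons the count was also 0 without male IgG 2, male IgG 5 or female APL-9796 7, 1 without female normoxia 9, and 4 without male IgG 4, female normoxia 7 or female normoxia 12.

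**Figure D3:**
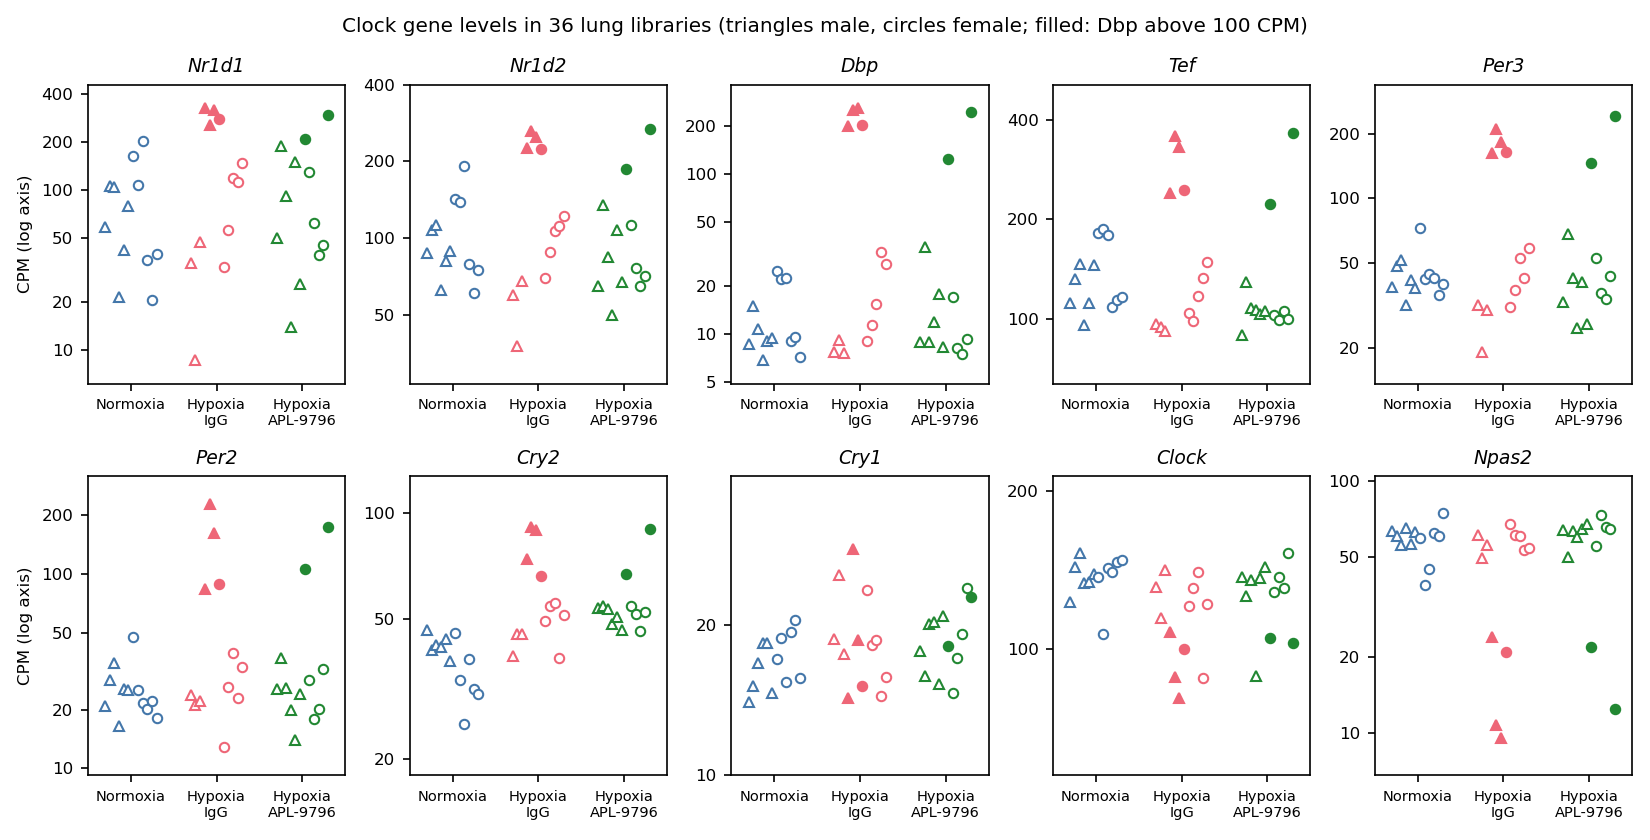
CPM of the 10 clock genes on a log axis in the 3 arms, with 1 point per library (triangles male, circles female, filled for the 6 libraries with Dbp above 100 CPM). The filled points lie above all others for Dbp, Nr1d1, Per2, Per3, Tef and Cry2 and below all others for Npas2; for Cry2, 11 of 12 APL-9796 libraries lie above the highest normoxic one.

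Hypoxia with IgG was compared with normoxia first. Of the 10 members 2 rose (Dbp and Cry2) and 1 fell (Clock), beside 12.5% of all genes called, 6.31% higher and 6.19% lower. Dbp ran from 6.86 to 24.9 CPM in normoxia (median 9.55 CPM) and from 7.63 to 259.6 CPM with IgG (median 21.5 CPM). Of the IgG libraries 6 of 12 lay above the highest normoxic one, and the others lay among the normoxic values. The log2 change of Dbp was 2.62 ± 0.68 (SE, FDR = 0.00854). Limma-voom, which averages log values, put it at 1.52 (FDR = 0.201), and it was 1.75 within run A (FDR = 0.321). Over the alternatives the adjusted p of Dbp ran from 0.000264 to 0.998. By sex Dbp changed by 3.62 in males (FDR = 0.0381), beside 3.1% of genes called, and was at 1.62 ± 0.93 (FDR = 0.229) in females, beside 15.5%.

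Cry2, the other member that rose, was measured at a narrower range. Normoxic libraries had 25.1 to 46.4 CPM (median 39.6 CPM) and IgG libraries 38.7 to 91.2 CPM (median 52.9 CPM). The ranges overlapped, with 8 of 12 IgG libraries above the highest normoxic one. Cry2 rose by 0.62 ± 0.12 (FDR = 0.000525) on the log2 scale. Within run A it was at 0.53 and did not pass (FDR = 0.0675).

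Clock had 107 to 153 CPM in normoxia (median 139.9 CPM) and 80.6 to 142 CPM with IgG (median 118 CPM), with 4 of 12 IgG libraries below the lowest normoxic one. It fell by 0.27 on the log2 scale (SE 0.088, FDR = 0.0381). The call was lost in 22 of the 36 fits that left out 1 library, for example without male IgG 5 (FDR = 0.0947), female IgG 7 (FDR = 0.0981) or male normoxia 3 (FDR = 0.0908).

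The other 7 members did not pass. Per2 had 16.6 to 47.4 CPM in normoxia (median 23.7 CPM) and 12.96 to 228 CPM with IgG (median 29.8 CPM), and its log2 difference was 1.18 ± 0.40 (FDR = 0.0511). DESeq2 called Per2 (FDR = 0.0193), as did 8 of the 36 fits without 1 library. Per3 had 31.8 to 72.9 CPM against 19.1 to 211 CPM, a log2 difference of 0.91 ± 0.37 (FDR = 0.107). Nr1d1 had 20.4 to 204 CPM against 8.59 to 326 CPM, a difference of 0.82 ± 0.52 (FDR = 0.327). For Per2, Per3, Nr1d1, Nr1d2 and Tef 4 of 12 IgG libraries lay above all normoxic ones, and for Npas2 4 of 12 lay below them. Other IgG libraries lay below all normoxic ones, 4 of 12 for Per3, 2 of 12 for Nr1d2, 2 of 12 for Tef, 1 of 12 for Per2 and 1 of 12 for Nr1d1. The log2 differences were 0.40 ± 0.29 (FDR = 0.408) for Nr1d2, 0.32 ± 0.23 (FDR = 0.415) for Tef, 0.16 ± 0.10 (FDR = 0.332) for Cry1 and -0.44 ± 0.25 (FDR = 0.275) for Npas2.

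The arms were compared again without the 6 libraries and then with a phase index as covariate. Neither fit tells phase and arm apart. The fit without the 6 libraries, a choice made after seeing the data, took away 4 IgG, 2 APL-9796 and 0 normoxic libraries. Most members go with or against Dbp in these libraries, so the values of all members below follow in part from choosing by Dbp. Dbp then differed by 0.0016 ± 0.32 (FDR = 0.998) between IgG and normoxia. Per2 was at -0.036 ± 0.20 (FDR = 0.947), Npas2 at -0.013 ± 0.088 (FDR = 0.955) and Clock at -0.12 ± 0.084 (FDR = 0.463). Cry2, which was also higher in the 6 than in the 30, was at 0.31 ± 0.082 (FDR = 0.0138) and was the 1 of 10 members called, beside 8.13% of 15856 genes. Per3 (-0.32), Nr1d1 (-0.59), Nr1d2 (-0.44) and Tef (-0.33, FDR = 0.0590) had values below 0 and did not pass.

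The other fit kept 36 libraries and added as a covariate a phase index from clock genes outside the 10, the mean z-score of Ciart and Usp2 minus the z-score of Bmal1. The index ran from 2.11 to 5.10 in the 6 libraries and from -2.18 to 0.64 in the 30. The index itself was not level over the arms, since within the 30 it was -0.26 ± 0.54 in normoxia (mean ± SD, n = 12), -1.24 ± 0.73 with IgG (n = 8) and -0.84 ± 0.49 with APL-9796 (n = 10). Usp2, which encodes a deubiquitinase and is part of the index, had there a mean of 8.54 ± 1.99 CPM in normoxia and 5.45 ± 1.59 CPM with IgG. With the covariate 5 of 10 members were called for IgG against normoxia, against 1 without the 6 libraries, where 8.13% of genes were called. The share of all genes called with the covariate is not given here, so the 2 counts cannot be set against each other. Cry2 was higher by 0.48 (FDR = 1.98e-05), Dbp by 0.93 (FDR = 0.00131) and Per2 by 0.43 (FDR = 0.0318). Npas2 was at -0.38 (FDR = 0.00111) and Clock at -0.23 (FDR = 0.0290). Nr1d1 was at 0.029 (FDR = 0.971). Cry2 was called in both fits, while Dbp, Per2, Npas2 and Clock were called in 1 of them.

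**Figure D4:**
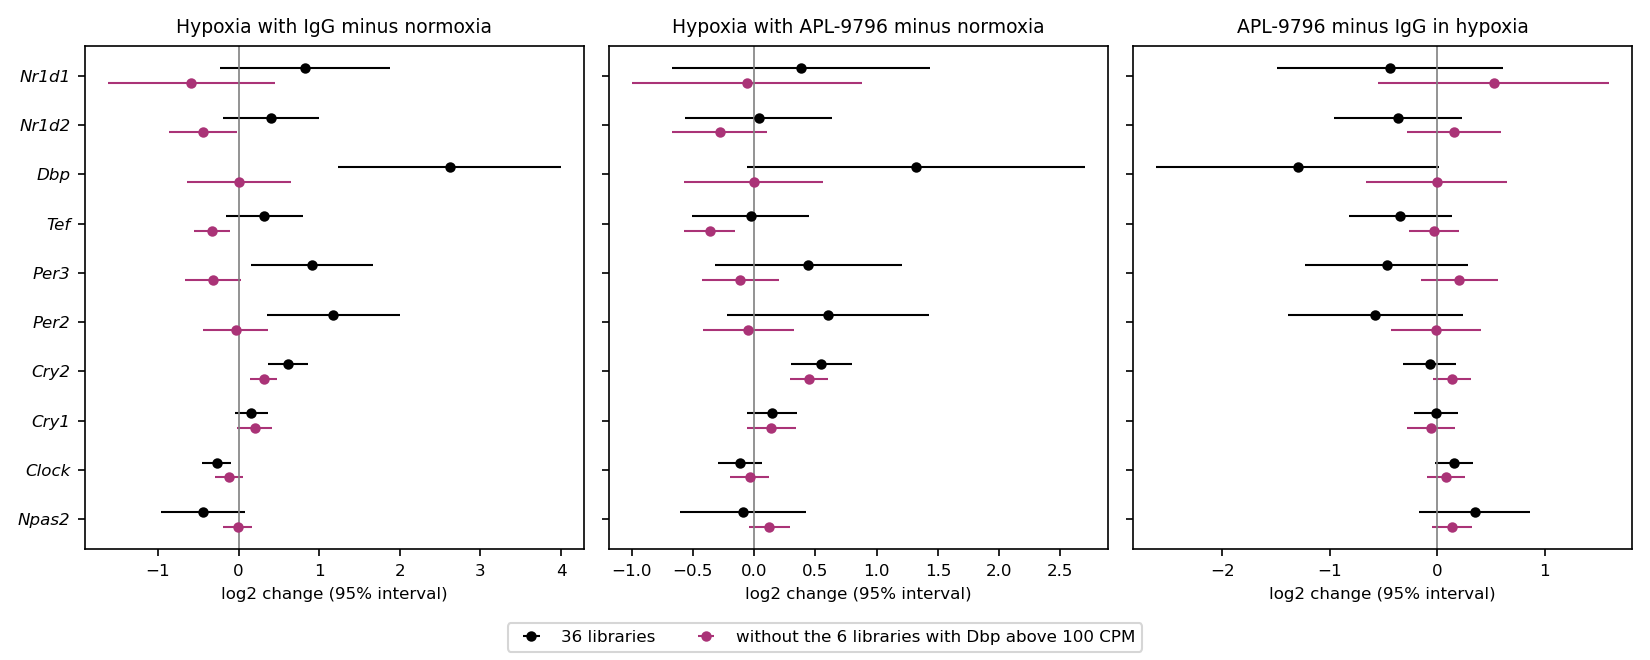
Log2 change of each member between arms with its 95% interval, from all 36 libraries and without the 6 libraries with Dbp above 100 CPM. For IgG against normoxia Dbp was at 2.62 with 36 libraries and at 0.0016 without the 6, while Cry2 was at 0.62 and 0.31, with both intervals above 0. Values without the 6 follow in part from choosing libraries by Dbp.

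Hypoxia with APL-9796 against normoxia had 1 of 10 members called (Cry2, higher), beside 18% of all genes, 9.08% higher. Cry2 had 46.2 to 90.3 CPM with APL-9796 (median 52.9 CPM), and 11 of 12 libraries lay above the highest normoxic one at 46.4 CPM. It rose by 0.55 ± 0.12 (FDR = 0.00154). Without the 6 libraries the log2 difference of Cry2 was 0.45 ± 0.077 (FDR = 9.64e-05), beside 13.7% of genes called, with 9 of 10 libraries above the normoxic range, and within run A it was at 0.50 (FDR = 0.0259). Across the alternatives its log2 change ran from 0.40 to 0.57, and its adjusted p was at most 0.0259.

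Dbp had 7.47 to 246 CPM with APL-9796 (median 10.6 CPM), and 3 of 12 libraries lay above the normoxic range. Its log2 difference from normoxia was 1.32 ± 0.68 (FDR = 0.177), and -0.0031 ± 0.28 (FDR = 0.995) without the 6. With the phase index Dbp passed, at 0.59 (FDR = 0.0351). The other 8 members ran from -0.11 ± 0.088 (FDR = 0.406) for Clock to 0.60 ± 0.40 (FDR = 0.314) for Per2. Tef was at -0.027 ± 0.23 (FDR = 0.950). Without the 6 libraries Tef was at -0.36 ± 0.10 (FDR = 0.0153), a value that follows in part from the choice of libraries by Dbp, since both APL-9796 libraries left out had more Tef than any of the 30. Without female normoxia 8 and 9 as well it was at -0.26 (FDR = 0.0728).

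**Figure D5:**
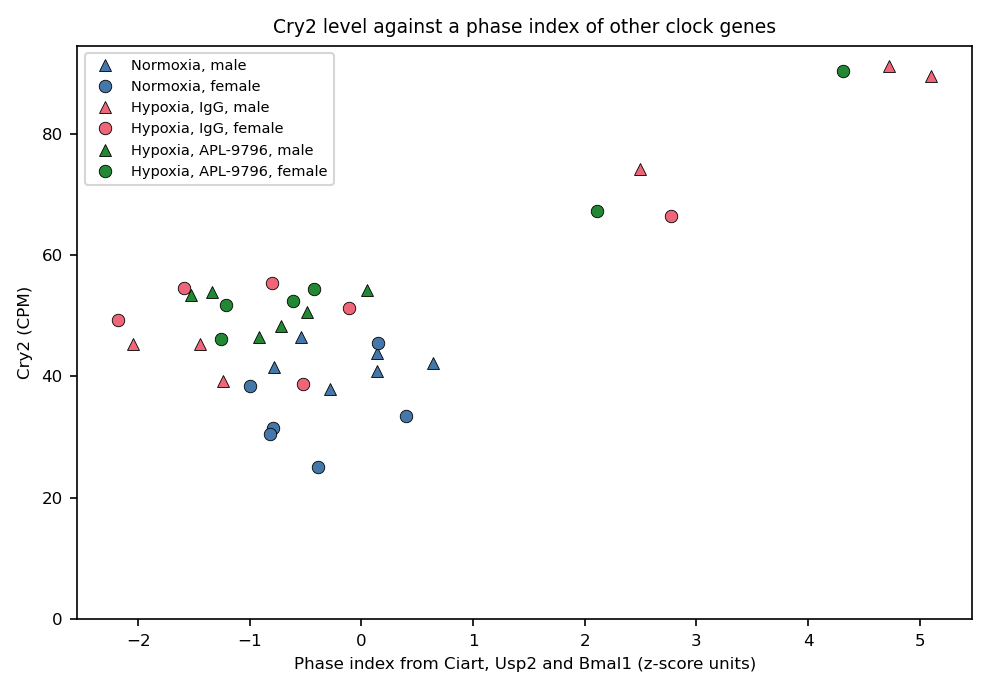
Cry2 level in CPM against the phase index from Ciart, Usp2 and Bmal1 (z-score units) in 36 libraries, with colour for arm and shape for sex. The 6 libraries at an index of 2.11 or above had 66.3 to 91.2 CPM; among the others, 9 of 10 APL-9796 libraries and 4 of 8 IgG libraries lay above the highest normoxic value.

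Cry2 was also read within each sex. Normoxic males had 37.9 to 46.4 CPM and normoxic females 25.1 to 45.5 CPM. In males 3 of 6 IgG libraries lay above the male normoxic range, the 3 with high Dbp, and the other 3 had 39.2, 45.4 and 45.4 CPM. The male difference was 0.61 ± 0.17 (FDR = 0.0428) with all libraries and 0.058 ± 0.13 (FDR = 0.888) without the 6. In females 5 of 6 IgG libraries lay above the female range, with a difference of 0.62 ± 0.17 (FDR = 0.0143), and 0.57 ± 0.11 (FDR = 0.000986) without the 6. The difference between the sexes did not pass, at 0.014 ± 0.24 (FDR = 0.984) with 36 libraries, beside 0.0128% of genes called, and 0.51 ± 0.17 (FDR = 0.156) without the 6, beside 0%. With APL-9796 6 of 6 males and 6 of 6 females lay above the range of their sex. The fitted differences were 0.28 ± 0.17 (FDR = 0.531) in males, beside 4.19% of genes, and 0.82 ± 0.17 (FDR = 0.00128) in females, beside 22.6%. The difference between the sexes did not pass, at 0.53 ± 0.25 (FDR = 0.285), beside 0% of genes called.

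APL-9796 was compared with IgG within hypoxia last. By edgeR 0 of 10 members were called, beside 0% of all genes, and 0 of 10 had an unadjusted p under 0.05. DESeq2 called 1 of 15537 genes. Dbp was at -1.30 ± 0.65 (FDR = 0.967), with a 95% interval from -2.62 to 0.021. The interval of Per2 ran from -1.39 to 0.24, that of Nr1d1 from -1.49 to 0.61 and that of Cry2 from -0.31 to 0.18. Without the 6 libraries the interval of Dbp ran from -0.66 to 0.65, that of Nr1d1 from -0.55 to 1.60 and that of Cry2 from -0.040 to 0.31. The 6 libraries were split unevenly, 3 of 6 IgG and 0 of 6 APL-9796 in males, and 1 of 6 and 2 of 6 in females. Dbp was at -3.04 ± 0.97 (FDR = 0.908) in males and 0.45 ± 0.89 (FDR = 0.943) in females, and Per2 at -1.89 ± 0.58 (FDR = 0.829) and 0.74 ± 0.56 (FDR = 0.848). By edgeR 0 of 10 members were called in males or in females, beside 0% of all genes in each. An unadjusted p under 0.05 was seen for 5 of 10 members in males and 0 of 10 in females. For the difference between the sexes 0 of 10 members passed, beside 0% of all genes, with 5 at an unadjusted p under 0.05. That difference was 3.49 ± 1.30 (FDR = 0.963) for Dbp and 2.63 ± 0.80 (FDR = 0.963) for Per2.

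Between females and males over the 3 arms 0 of 10 members were called by edgeR, beside 1.65% of all genes, and 0 of 10 had an unadjusted p under 0.05. The log2 differences ran from -0.12 ± 0.10 (FDR = 0.535) for Cry2 to 0.52 ± 0.53 (FDR = 0.613) for Dbp.

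Of 29 other clock genes listed, 21 had a row, and 21 passed the filter; Per1, Hlf, Nfil3 and Bhlhe41 were not analysed here. For IgG against normoxia 0 of 21 were called by edgeR, beside 12.5% of all genes, with 5 at an unadjusted p under 0.05. Closest were Noct, which encodes an NADPH phosphatase (0.40 ± 0.14, FDR = 0.0577), and Ciart (1.35 ± 0.49, FDR = 0.0662). For APL-9796 against normoxia 2 of 21 rose, Csnk1e, a kinase that phosphorylates PER (0.19 ± 0.058, FDR = 0.0223), and Bmal2, a paralog of Bmal1 (0.98 ± 0.35, FDR = 0.0446), beside 9.08% of all genes higher, and 0 fell. Against normoxia Bmal1 did not pass with IgG (-0.32 ± 0.34, FDR = 0.587) or APL-9796 (-0.032 ± 0.34, FDR = 0.959). The median log2 change of the 21 was -0.035 with IgG and -0.0010 with APL-9796, beside -0.021 and -0.022 over all genes.

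Genes that answer to glucocorticoids or handling, and markers of other cells, were read beside the clock. Of 12 glucocorticoid-responsive genes 2 rose with IgG against normoxia, Sgk1 (0.68 ± 0.10, FDR = 8.71e-06) and Ddit4 (0.61 ± 0.20, FDR = 0.0414), the latter named after its values were seen, beside 6.31% of all genes higher. The 3 that fell were Angptl4 (-0.73 ± 0.16, FDR = 0.00145), Dusp1 (-0.69 ± 0.16, FDR = 0.00217) and Cdkn1a (-0.74 ± 0.22, FDR = 0.0201), beside 6.19% of all genes lower. With APL-9796 against normoxia 1 of the 12 rose and 4 fell, beside 18% of all genes called. The summed level of the list was 2026 to 2761 CPM in the 6 libraries with high Dbp and 1407 to 3211 CPM in the 30. Of 13 immediate early genes 0 were called with IgG by edgeR, beside 12.5% of all genes, with 2 at an unadjusted p under 0.05. Of the 13, 1 rose with APL-9796, beside 9.08% of all genes higher. The 13 summed to 1101 to 1857 CPM in the 6 libraries and 939.7 to 4485 CPM in the 30. Summed markers of alveolar type II cells were 14584 to 17192 CPM in the 6 and 12372 to 41529 CPM in the 30, and those of endothelium 2352 to 2942 CPM and 2079 to 2897 CPM. The type II sum was highest in female normoxia 9 (41529 CPM) and 8 (30718 CPM), and 22119 CPM or less elsewhere. Female normoxia 9 also had the most Nr1d1 of the 30 (204 CPM) and the least Cry2 (25.1 CPM). Female normoxia 8 had the least Npas2 of the 30 (38.5 CPM). These 2 libraries are left out in 1 of the alternatives. Against normoxia 2 of 3 alveolar type II markers fell with IgG and 3 of 3 with APL-9796. Of 5 endothelial markers 3 rose and 2 fell with IgG, and 3 rose and 2 fell with APL-9796. Of 5 alveolar type I markers 2 fell with IgG and 1 with APL-9796. Of 4 club cell markers 1 rose and 1 fell with IgG, and 1 fell with APL-9796. Over all genes 12.5% were called with IgG and 18% with APL-9796, the shares that stand beside every marker count here. Adipocyte markers summed to 185 to 751 CPM in the 6 and 114 to 430.1 CPM in the 30. By arm they summed to 114 to 252 CPM in normoxia, 181 to 751 CPM with IgG and 180.0 to 339 CPM with APL-9796. Male IgG 6 (751 CPM) and female IgG 11 (430.1 CPM) were the highest with IgG. Of 11 adipocyte markers 5 rose with IgG and 1 with APL-9796, beside 6.31% and 9.08% of all genes higher. Cardiac muscle markers summed to 109 to 1118 CPM against 12.1 to 679.7 CPM, and 0 of 5 were called by edgeR in either comparison with normoxia, with 1 and 0 at an unadjusted p under 0.05. Of 4 skeletal muscle markers 0 were called by edgeR with IgG, with 0 at an unadjusted p under 0.05, and 3 were called higher with APL-9796. The skeletal muscle sum was 2433 CPM in 1 library, male APL-9796 5. It was 43.3 CPM or less in the rest of that arm and at most 35.3 CPM in normoxia. The part of these genes and cells in the clock results was not tested.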

How the data were processed

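RNA of rat lung was sequenced in 36 libraries. The authors deposited 1 table of raw read counts per gene, and DESeq2 1.24.0 appears among the tools of the submitters' processing notes. Which genome build, aligner and counter they used, and whether counting used strand, is not given in these sources, so reads of overlapping or antisense genes cannot be told apart. Arms, sexes and replicate numbers came from the labels, and the sets called sequencing runs from the read file names in the deposited sample information. Members and lists were chosen with earlier results of these data known. Members are all named; other clock genes were named if called, with up to 6 more by smallest p, the genes most like Dbp by the 6 highest and 6 lowest r, and up to 4 by smallest p of the glucocorticoid and immediate early lists.

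Counts were filtered with filterByExpr, scaled with TMM and fitted with edgeR 4.0.16 (R 4.3.3, robust quasi-likelihood, 1 term for each of 6 sex-by-arm groups). Spread was tested with limma 3.58.1 on log2 CPM (prior count 2). Alternatives included DESeq2 1.42.0, limma-voom, sva 3.50.0, other filters, run, phase indices and left-out libraries. Settings without the 6 libraries with Dbp above 100 CPM were added after seeing the data. Correlations between members were planned over 36 libraries but were computed over 30, because the 36 fall into separate clusters. The edgeR and limma steps were tested on simulated data. Current symbols matched 11643 of 27308 genes. Promoter sequences came from RefSeq (GRCr8). Cry1 had no promoter window.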

Additional observations from a re-analysis of the deposited data

Results flagged for a closer look

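Of 60 sets of 6 libraries (10 genes in 6 groups), 11 had a highest or lowest library far from the rest by Dixon's criterion. Chance meets it in about 1 of 20 sets of normally distributed values. It was applied to CPM and not to log2 CPM, so that rate need not hold here. The sets also share libraries and genes that move together. Female IgG 7 stood apart in its group for 6 genes. It had the highest Dbp (202 CPM), Per2 (88.8 CPM), Per3 (164 CPM), Nr1d2 (223 CPM) and Tef (244 CPM) and the lowest Npas2 (20.99 CPM) of the female IgG libraries. Male APL-9796 2 had the highest Dbp of its group (35.2 CPM). Female normoxia 7 had the highest Per2 (47.4 CPM) and Per3 (72.9 CPM) of the normoxic females. Clock was lowest in female normoxia 8 (107 CPM), the only library of run C, and in male APL-9796 4 (88.8 CPM). The high Dbp of 3 male IgG and 2 female APL-9796 libraries did not meet this criterion, which looks at 1 library at a time.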

How the results depend on the processing

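Cry2 kept its direction and its call against normoxia in both hypoxic arms under every alternative run except run A alone, where it missed for IgG; its log2 change ran from 0.27 to 0.63 with IgG. Dbp against normoxia with IgG lost its call with 1 surrogate variable, limma-voom, the replicate block, run A alone and each setting without the 6 libraries. Leaving out each library in turn gave a range of 1.95 to 2.76 for Dbp and 0.56 to 0.69 for Cry2 (IgG against normoxia), with 2 to 4 members called there and 0 to 4 in the spread test. It turned the sign of uncalled values of Cry1 (APL-9796 against IgG, -0.056 to 0.050), Nr1d2 (-0.12 to 0.15), Tef (-0.21 to 0.034) and Npas2 (-0.16 to 0.028), all APL-9796 against normoxia. Members called for IgG against normoxia, 3 in the report, were 1 with 1 surrogate variable, 0 in run A alone, 5 with the phase index of clock genes outside the 10, and 1 in each of the 3 settings without the 6 libraries. For APL-9796 against normoxia, 1 in the report, they were 2 with either phase index, 2 without the 6 libraries and 2 with the run term added. Females against males went from 0 to 2 without the 6 libraries and with the run term. For the other settings the shares of all genes called are not given here, so a count may move with the calls over all genes. The spread test went from 2 to 0 with group medians, 1 without female normoxia 8 and 9, and 0 without the 6 libraries. Same-numbered libraries had a median correlation of 0.039 over 36 pairs. It was -0.012 over 180 pairs of other numbers from another arm and the same sex. What the numbers stand for is not stated, and these values cannot tell whether same-numbered libraries shared a batch or hour. With the replicate block Dbp was at 1.85 (FDR = 0.0832) for IgG against normoxia, and Nr1d2 turned to -0.036 for APL-9796 against normoxia. Of the single-gene values under other settings 419 kept direction and call, 64 changed sign, 18 lost a call and 9 gained one. The log2 values that changed sign follow. Without the 6 libraries with Dbp above 100 CPM they were, for IgG against normoxia Per2 -0.036, Per3 -0.32, Nr1d1 -0.59, Nr1d2 -0.44, Tef -0.33, for APL-9796 against IgG Per3 0.21, Nr1d1 0.53, Nr1d2 0.16, Cry2 0.14, for APL-9796 against normoxia Dbp -0.0031, Per2 -0.048, Per3 -0.11, Nr1d1 -0.060, Nr1d2 -0.28, Npas2 0.12. Without these 6 and with sequencing run as a term they were, for IgG against normoxia Per3 -0.27, Nr1d1 -0.24, Nr1d2 -0.30, Tef -0.26, for APL-9796 against IgG Per3 0.085, Nr1d1 0.052, Cry2 0.10, for APL-9796 against normoxia Per2 -0.11, Per3 -0.19, Nr1d1 -0.19, Nr1d2 -0.31, Npas2 0.10. Without these 6 and female normoxia 8 and 9 they were, for IgG against normoxia Per2 -0.063, Per3 -0.34, Nr1d1 -0.30, Nr1d2 -0.25, Tef -0.23, for APL-9796 against IgG Per3 0.21, Nr1d1 0.52, Nr1d2 0.16, Cry2 0.14, for APL-9796 against normoxia Per2 -0.079, Per3 -0.13, Nr1d2 -0.093, Npas2 0.043. With the phase index of clock genes outside the 10 as covariate they were, for IgG against normoxia Nr1d2 -0.052, Tef -0.039, for APL-9796 against IgG Per3 0.0041, Nr1d1 0.19, Cry2 0.046, for APL-9796 against normoxia Nr1d2 -0.076. With a phase index of the other members as covariate they were, for IgG against normoxia Per3 -0.035, Nr1d1 -0.30, Nr1d2 -0.24, Tef -0.19, for APL-9796 against IgG Per2 0.020, Per3 0.14, Nr1d1 0.43, Nr1d2 0.11, Cry2 0.074, for APL-9796 against normoxia Nr1d2 -0.13. With limma-voom they were, for APL-9796 against IgG Cry1 0.023. With sequencing run as a term they were, for APL-9796 against IgG Cry1 0.031, for APL-9796 against normoxia Tef 0.0057. In run A alone they were, for APL-9796 against IgG Cry1 0.053, for APL-9796 against normoxia Nr1d2 -0.10, Npas2 0.013. Without female normoxia 8 and 9 they were, for APL-9796 against normoxia Tef 0.086. Where a library, run or covariate was removed or added, the cause of these changes was not tested.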
